A study of Mus musculus with 4 samples.

Results

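The genes described here encode the machinery that starts and carries out DNA replication. They were taken as a fixed list of 52 symbols, and all 52 were found among the 24391 genes of the count table and compared between 2 conditions of Beko cells. The list was sorted by role into 13 groups, which run from the origin recognition complex to the chromatin assembly factor that works behind the fork. Beko cells are progenitor T cells of the mouse grown as a line, in which Notch is constitutively active, and both conditions were made in this same line. In the GSI condition (2 libraries) the cells were kept for 48 h with DAPT, an inhibitor of γ-secretase, the protease that releases the intracellular domain of Notch. In the washout condition (2 libraries) the same 48 h of GSI was followed by removal of the inhibitor and 24 h of further culture. RNA-Seq reads per gene were counted by the authors, and the comparison was made to find genes whose RNA changes when Notch signaling returns. The washout cells were also washed once more and cultured longer, and these differences cannot be told apart from the return of Notch activity. The libraries of a condition were not stated to come from separate cultures, so the p-values measure the spread between these libraries only.

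Before a cell can copy its DNA, the origin recognition complex, Cdc6 and Cdt1 load the MCM2-7 helicase onto origins in G1, a step called licensing. At the start of S phase the kinase made of Cdc7 and Dbf4, together with cyclin E and its kinase partner, switches the helicase on with Cdc45, the GINS complex and Mcm10. DNA polymerase alpha with primase then lays the first primers, polymerases delta and epsilon extend them on the clamp Pcna, and Fen1 and Lig1 join the lagging-strand fragments. Many of these genes are known targets of the E2F transcription factors, which are active around the entry into S phase.

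Normalised counts are given in CPM, that is counts scaled to a common library size. The libraries held 13716199 to 36364200 counts, and 12266 genes passed the filter on low counts. The 8 genes of a Notch response list centred on a log2 fold change of 2.37 between washout and GSI, with 7 of them past both thresholds. In this list Hey1, a transcription factor induced by Notch, had 16.2 and 18.1 CPM in GSI and 180 and 200 in washout, at 3.47 and the receptor gene Notch3 had 340 and 448 CPM in GSI and 403 and 465 in washout, at 0.14. The adjusted p of Notch3 was 0.499 by edgeR. Its value depended on the setting, at 0.62 with an edgeR adjusted p of 0.0054 after correction for GC content and length. With total-count scaling Notch3 was at -0.059. Of 12 markers of progenitor T cells, all were measured, Ptcra was upregulated, Gata3 and Dntt were downregulated, and their summed level was 7349 and 7874 CPM in GSI and 6529 and 6433 in washout. Among 4 B-cell markers none passed the filter, and their summed level was at most 0.548 CPM. Of 4 myeloid markers, Lyz2 was at 0 in every library, Csf1r had 2 to 6 counts and Cd14 at most 1, while Itgam fell from 48.7 and 37.9 CPM in GSI to 5.38 and 4.76 in washout. Of the erythroid markers, Hba-a1 was at 0 in every library, Epor was at 11.8 and 11.0 CPM in GSI and 6.26 and 6.40 in washout, and Klf1 was at 1.41 and 1.30 CPM in GSI and 0.646 and 0.521 in washout. The part of these markers in the results was not tested.

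Replication genes were more abundant after washout, from origin recognition to chromatin assembly. Together the 52 genes took 0.434% and 0.519% of all counts in the GSI libraries and 1.06% and 1.04% in the washout libraries. A gene was called upregulated or downregulated when the quasi-likelihood test of edgeR gave an adjusted p under 0.05 and its log2 fold change was above 1 or below -1. All 52 genes were tested, 37 were upregulated and 1, Pold4, was downregulated. This is 71.2% and 1.92% of the replication genes, beside 7.74% of all genes tested that were upregulated and 11.7% that were downregulated. At adjusted p alone, 49 of the 52 were higher and 1 was lower, beside 27.0% higher and 25.4% lower among all genes. Both washout libraries lay above both GSI libraries for 49 of the 52, or 94.2%, beside 38.2% of all genes.

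The median log2 fold change of the 52 genes was 1.30, with quartiles at 0.96 and 1.50, and that of all 12266 genes was -0.01. The range ran from -1.21 for Pold4 to 1.90 for Mcm5, a subunit of the helicase. Of the 14 genes that did not pass both thresholds, 12 were higher at adjusted p but changed by less than the fold threshold, and Orc3 and Orc4 passed neither. Nearest to the fold threshold were Pold3 at 1.06, among the upregulated, and Gins4 at 0.98, among the others. No test of a difference between genes was run, so the order of the fold changes is a description. In bulk RNA, fewer cells in S phase and less RNA per cell cannot be told apart.

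**Figure D1:**
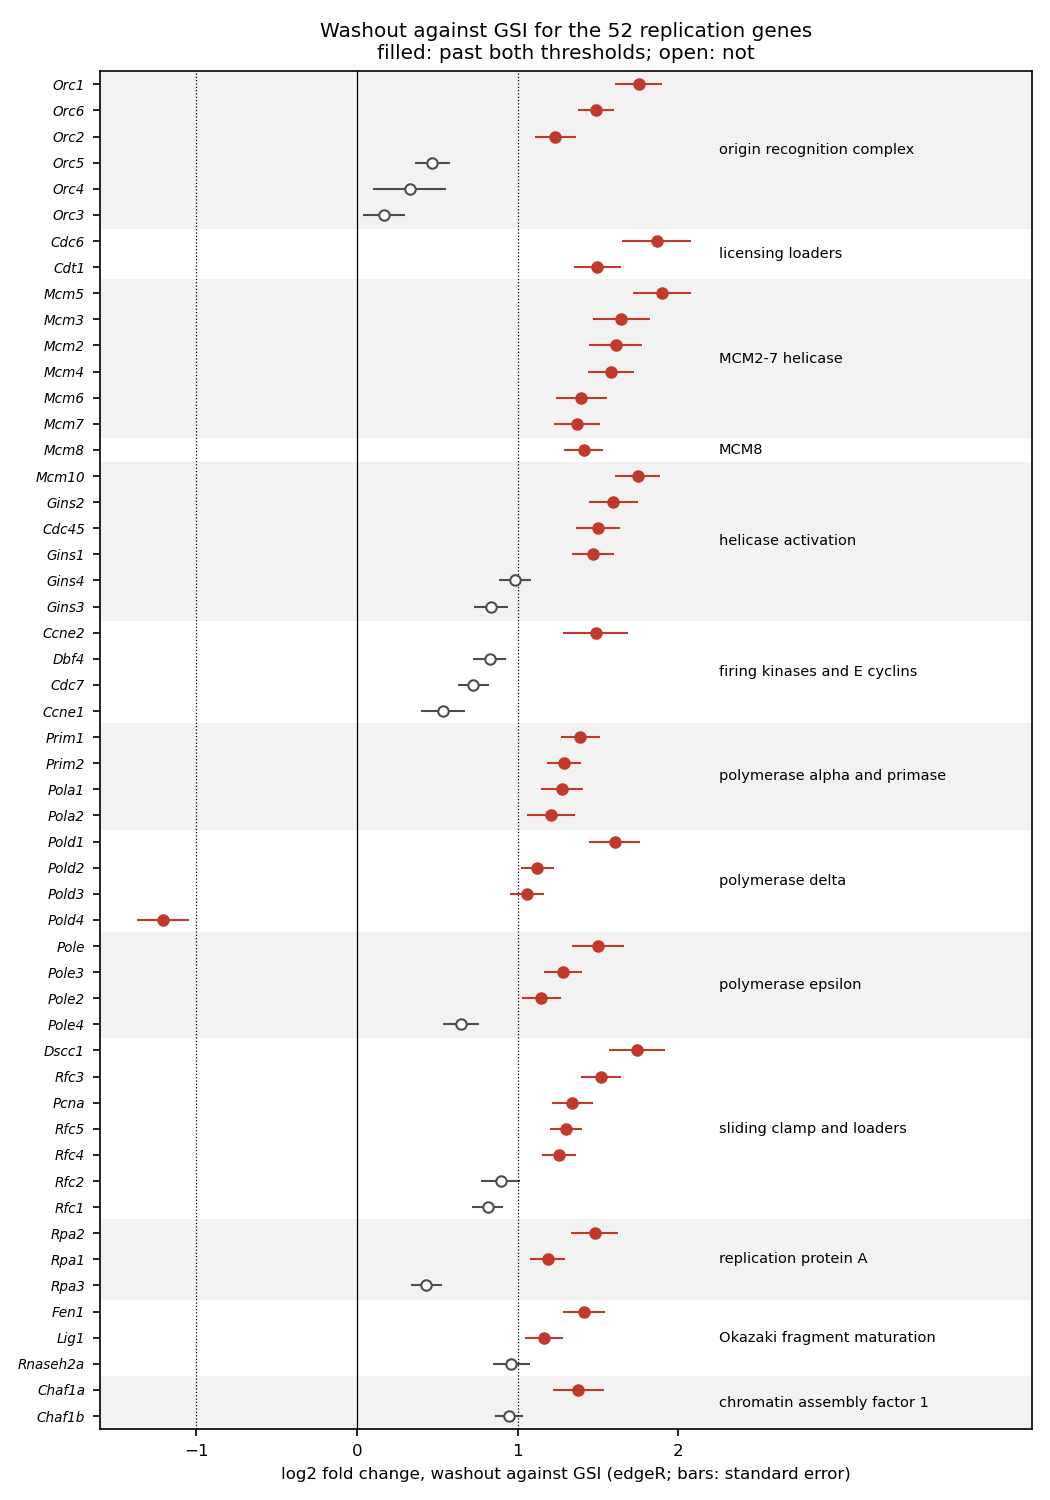
Log2 fold change of each of the 52 replication genes, washout against GSI, on the horizontal axis, with bars for the standard error and genes sorted by role. Filled points passed both thresholds and open points did not, dotted lines mark 1 and -1. Pold4, at -1.21, is the only point left of 0.

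When libraries were scaled by total count without TMM factors, the median of all genes moved to -0.21 and that of the replication genes to 1.10. Under that scaling 32 of the 52 were upregulated and 1 was downregulated, while 586 of all genes were upregulated and 1963 downregulated, a share of upregulated calls of 23.0% instead of 39.8%. The genes that then missed the fold threshold were Pold2, Pold3, Pole2, Rpa1 and Lig1. In edgeR's test against the fold threshold itself (glmTreat), 21 of the 52 were called higher and none lower.

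Within a condition, the GSI libraries differed in 1 direction for most of these genes. In 43 of the 52, GSI replicate 2 was above GSI replicate 1 in CPM, whereas washout replicate 2 was above washout replicate 1 in 17. The same count over all genes was not made, so this difference may not be particular to these genes. Replicate 2 was the less deep library in both conditions, with 13716199 against 29671401 counts in GSI and 14451995 against 36364200 in washout. The fewest counts of any replication gene in any library were the 90 of Pold4 in washout replicate 2, and the most were the 39318 of Mcm6 in washout replicate 1.

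The origin recognition complex was split. Orc1, Orc2 and Orc6 were upregulated, whereas Orc3, Orc4 and Orc5 were not. The median log2 fold change over the 6 subunits was 0.85.

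Orc1, the large ATPase subunit, had 13.4 and 17.3 CPM in GSI and 52.1 and 50.4 in washout. Its log2 fold change was 1.75 ± 0.15 (SE), with an adjusted p of 0.000453 by edgeR. Orc6 had 40.1 and 46.9 CPM in GSI and 126 and 117 in washout, a log2 fold change of 1.49. The washout libraries were clearly apart from the GSI libraries for both genes. Orc2 had 50.7 and 48.5 CPM in GSI and 129 and 104 in washout, and its log2 fold change was 1.23.

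Orc3, a core subunit of the complex, had 99.0 and 92.7 CPM in GSI and 120 and 95.0 in washout. The lower washout library lay between the GSI libraries, so the conditions overlapped. The log2 fold change was 0.17 ± 0.13 (SE) with an adjusted p of 0.319 by edgeR, and it turned to -0.029 with total-count scaling and to -0.0090 without washout replicate 1. Without washout replicate 2 it was 0.34 with an adjusted p of 0.0414, and with GC content and length corrected for it was 0.07. Orc4 had 48.6 and 40.8 CPM in GSI and 69.1 and 42.5 in washout, which also overlapped. Its log2 fold change was 0.33 ± 0.23 (SE), with an adjusted p of 0.271 by edgeR, and it was -0.073 without washout replicate 1. The call of Orc4 at adjusted p depended on the setting. The log2 value was 0.31 with an adjusted p of 0.00665 with the replicate block, 0.40 with 0.00861 after correction for GC content and length (9.11e-05 with the block too), 0.36 with 0.0133 without the filter, and 0.64 with 0.00409 without washout replicate 2. With total-count scaling it was 0.13. Orc5 stood in between. It had 25.5 and 24.8 CPM in GSI and 35.9 and 33.7 in washout, without overlap, and its log2 fold change was 0.47 with an adjusted p of 0.0124 by edgeR. It was 0.20 with an adjusted p of 0.114 after correction for GC content and length (0.0472 with the replicate block) and 0.27 with 0.0792 by total count, and its adjusted p came to 0.0703 when GSI replicate 1 was left out and 0.0678 when GSI replicate 2 was.

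Levels of different genes were compared as RPKM, the normalised counts per kilobase of the gene's exons. Orc1 was the lowest subunit of the complex in GSI, at 2.87 and 3.71 RPKM, and Orc6 was the highest, at 24.2 and 28.4. After washout Orc1 was at 11.1 and 10.8 RPKM, between Orc4 at 9.27 and 5.70 and Orc5 at 12.7 and 11.9, and Orc6 was at 76.0 and 70.9. With the length of the longest transcript instead, Orc3 and not Orc6 was the highest subunit in GSI, at 32.1 and 30.0 RPKM. By that length Orc1 was still the lowest by mean in washout, at 12.7 and 12.3 RPKM, and Orc4, at 17.0 and 10.4, overlapped with it.

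Both loaders of the helicase were upregulated. Cdc6, an ATPase that joins the origin recognition complex, had 54.9 and 87.3 CPM in GSI and 258 and 257 in washout. Its GSI libraries were further apart than those of most genes here, but both were well below washout. The log2 fold change of Cdc6 was 1.86 ± 0.21 (SE), with an adjusted p of 0.000998 by edgeR. Cdt1, which brings the MCM proteins to the origin, had 73.4 and 95.7 CPM in GSI and 228 and 248 in washout, a log2 fold change of 1.50.

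All 6 subunits of the MCM2-7 helicase were upregulated, with log2 fold changes from 1.37 to 1.90 and a median of 1.60. Their summed level was 1302 and 1716 CPM in GSI and 4339 and 4488 in washout. Each subunit was higher in both washout libraries than in both GSI libraries, and the replicates of washout lay close together.

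Mcm5 had the largest change of all replication genes. It lies at chr8:77633427-77652338 on the plus strand (mm9). It had 175 and 244 CPM in GSI and 739 and 822 in washout, a log2 fold change of 1.90 ± 0.18 (SE) with an adjusted p of 0.000593 by edgeR. Mcm3 had 98.2 and 141 CPM in GSI and 361 and 385 in washout, a log2 fold change of 1.65. Mcm2 had 210 and 283 in GSI and 732 and 772 in washout, a log2 fold change of 1.61. For these subunits the lower washout library was far above the higher GSI library.

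Mcm4 had 162 and 208 CPM in GSI and 561 and 546 in washout, and its log2 fold change was 1.58. Mcm6 had 379 and 494 in GSI and 1155 and 1144 in washout, with a log2 fold change of 1.40. Mcm7 had the smallest change of the 6 subunits, from 277 and 347 CPM in GSI to 791 and 819 in washout, with a log2 fold change of 1.37 ± 0.14 (SE) and an adjusted p of 0.00075 by edgeR. A stretch of mm9 chromosome 16 is 97.5% identical to 78.2% of the Mcm7 transcript, and its exons overlap those of Ap4m1 and Cops6 on the other strand, so reads of these could have been exchanged.

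Per exon length, Mcm6 was the highest subunit in both conditions, at 86.8 and 113 RPKM in GSI and 265 and 262 in washout, and Mcm3 was the lowest, at 32.8 and 47.1 RPKM in GSI and 121 and 129 in washout. In GSI the libraries of the 5 subunits under Mcm6 overlapped from each rank to the next. Mcm5 moved from rank 4 in GSI, at 50.1 and 69.6 RPKM, to rank 2 in washout, at 211 and 235, where it overlapped with Mcm2 at 217 and 229. With the longest transcript as length, Mcm7 took the first rank by mean in both conditions. Mcm8, a related protein that acts in recombination repair and is not part of the MCM2-7 ring, had 15.2 and 17.3 CPM in GSI and 44.3 and 41.6 in washout. The log2 fold change of Mcm8 was 1.41.

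**Figure D2:**
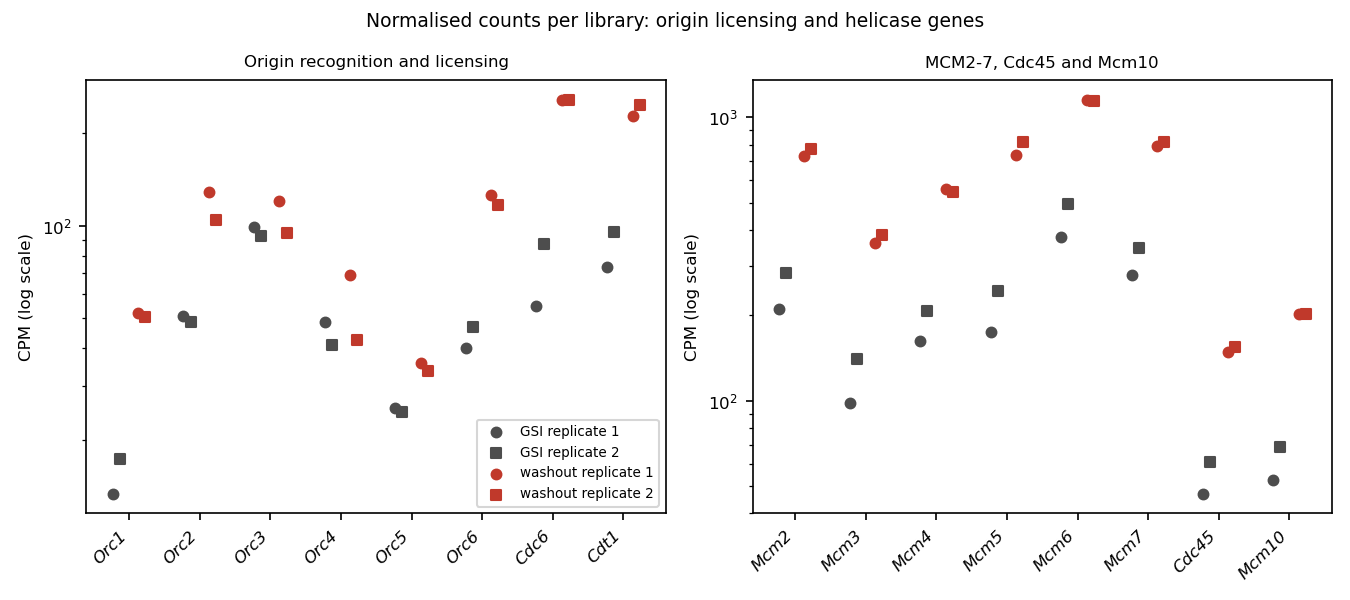
Normalised CPM on a log axis, one point per library, for the 6 subunits of the origin recognition complex with Cdc6 and Cdt1 (left) and for MCM2-7 with Cdc45 and Mcm10 (right). Circles are replicate 1 and squares replicate 2, grey is GSI and red is washout. Grey and red points overlap in height for Orc3 and Orc4 and for no other gene shown.

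The start regions of the replication genes were searched for short motifs, since the genes moved together. RefSeq windows on GRCm38.p6, from 250 bases before to 50 after the start of each gene, were given for 43 of the 52 genes. The search covered both strands and 4 spellings of the E2F motif, namely TTTCCCGC and TTTCGCGC and TTTGCCGC and TTTGGCGC. At least one of these was found in the windows of 17 of the 43 genes, or 39.5%, beside 4.75% of the 9073 tested genes with a window and 2.61% of all 27025 genes with one. With the first T left off each spelling, which takes in all of those matches, the shares were 65.1%, 19.6% and 10.9%. In related lists read below, the full spellings were found in 8 of 24 other origin and fork factors. They were in 0 of 8 genes that supply deoxynucleotides and in 1 of 15 genes of mitosis. With the first T left off, matches were in 13 of 24, 3 of 8 and 3 of 15 genes of these lists, in that order. The CCAAT box, bound by NF-Y, was in 58.1% of the replication gene windows and 43.1% of those of tested genes. It was in 11 of 24 other origin and fork factors and in 13 of 15 genes of mitosis, so it was not particular to the replication genes. TGGGAA, the core bound by the Notch partner RBPJ, was in 46.5% and 26.2%. CACGTG, the E-box of Myc, was in 18.6% and 11.7%. TGGGAA was in 1 of 5 Notch response genes with a window and in 6 of 24 other origin and fork factors. These are counts of letters in a window, and binding was not measured here.

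Of the 5 MCM2-7 genes with a window, Mcm3, Mcm5, Mcm6 and Mcm7 held an E2F match and Mcm2 did not. Both loaders held one as well. One match of each gene is given here. In these stretches, read 5′ to 3′ on the gene's strand, capitals mark the match and are in the reverse orientation where they begin with G. They are shown because these licensing genes include the largest rises and, in Orc3, a gene that was not called.
Mcm3: aacttccgtgGCGGGAAAacttgggaag
Mcm5: cgccaagaacTTTCGCGCcaaaacgtcc
Mcm6: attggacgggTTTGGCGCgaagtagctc
Mcm7: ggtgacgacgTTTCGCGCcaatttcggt
Cdc6: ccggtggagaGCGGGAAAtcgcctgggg
Cdt1: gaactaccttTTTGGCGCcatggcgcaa
Orc1: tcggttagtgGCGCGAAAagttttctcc
Orc3: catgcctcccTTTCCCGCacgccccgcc
Orc3, whose RNA overlapped between conditions, held a match at 41 bases before its start, and Orc1, one of the most changed genes, held one at 27 bases before. The median log2 fold change was 1.40 for the 17 genes with an E2F match, of which 14 were upregulated, and 1.22 for the 26 without, of which 16 were. With the first T left off, it was 1.33 with a match (20 of 28 upregulated) and 1.21 without (10 of 15). For the CCAAT box it was 1.38 with (19 of 25 upregulated) and 1.16 without (11 of 18). For TGGGAA it was 1.30 with (14 of 20 upregulated) and 1.28 without (16 of 23). For CACGTG it was lower with a match, at 1.20 with (6 of 8 upregulated) and 1.28 without (24 of 35). None of these differences was tested.

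The whole window of Mcm5, chr8:75109259-75109558 on the plus strand of GRCm38.p6, is shown as that of the gene with the largest rise, with E2F, CCAAT and TGGGAA matches in capitals on either strand. The E2F match is read on both strands, since its forward and reverse copies overlap.
Mcm5 window: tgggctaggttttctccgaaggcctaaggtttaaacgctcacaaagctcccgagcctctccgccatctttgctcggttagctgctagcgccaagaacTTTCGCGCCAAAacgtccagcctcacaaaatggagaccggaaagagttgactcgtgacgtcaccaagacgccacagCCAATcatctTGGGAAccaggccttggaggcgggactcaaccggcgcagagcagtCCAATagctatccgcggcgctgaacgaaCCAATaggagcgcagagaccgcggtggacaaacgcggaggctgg

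Of the 6 genes that turn the loaded helicase into a moving one, 4 were upregulated and all 6 were higher at adjusted p, with a median log2 fold change of 1.49. Mcm10, which helps the helicase open the origin, had 52.6 and 68.8 CPM in GSI and 203 and 203 in washout. Its log2 fold change was 1.75 ± 0.14 (SE), with an adjusted p of 0.000438 by edgeR. Cdc45, the third component of the active helicase, had 46.9 and 60.7 in GSI and 149 and 155 in washout, a log2 fold change of 1.50.

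The subunits of GINS, the complex of 4 proteins that joins Cdc45 to MCM2-7, differed in how far they moved. Gins2 and Gins1 had log2 fold changes of 1.59 and 1.47 and were upregulated. Gins4 had 40.9 and 43.7 CPM in GSI and 79.7 and 87.5 in washout, and its log2 fold change of 0.98 was just under the threshold, with an adjusted p of 0.000729 by edgeR. The value was above 1 with DESeq2 (1.0007), without the filter (1.02), without GSI replicate 2 (1.04) and without washout replicate 1 (1.06). Gins3 had 22.4 and 23.4 CPM in GSI and 40.9 and 40.7 in washout, with a log2 fold change of 0.83 ± 0.10 (SE) and an adjusted p of 0.00134 by edgeR. All 4 were thus higher in washout, and the libraries did not overlap for any of them.

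Among the genes that trigger origin firing, only Ccne2 was upregulated. It encodes a cyclin E, and it had 42.5 and 41.9 CPM in GSI and 143 and 92.7 in washout. The washout libraries were far apart from each other, yet both were above GSI, and the log2 fold change was 1.49 ± 0.20 (SE) with an adjusted p of 0.00175 by edgeR. Its paralog Ccne1 had 25.6 and 31.8 CPM in GSI and 42.6 and 40.2 in washout, a log2 fold change of 0.54 ± 0.14 (SE) with an adjusted p of 0.0173 by edgeR. Its adjusted p was 0.118, at 0.38, without GSI replicate 1, and 0.0724, at 0.34, by total count. In RPKM the E cyclins were close in GSI, with Ccne2 at 12.2 and 12.0 and Ccne1 at 9.63 and 11.9, and further apart in washout, with Ccne2 at 40.9 and 26.5 and Ccne1 at 16.0 and 15.1.

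Cdc7, the kinase that phosphorylates MCM2-7, had 65.3 and 69.4 CPM in GSI and 116 and 106 in washout. Cdc7 changed by 0.72 on the log2 scale, with an adjusted p of 0.0017 by edgeR. Dbf4, its activating subunit, had 80.4 and 80.5 in GSI and 152 and 133 in washout, with a log2 fold change of 0.83 and an adjusted p of 0.00135 by edgeR. The kinase and its activator were thus both higher in washout and both under the fold threshold.

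All 4 subunits of polymerase alpha and primase were upregulated, within a narrow range of log2 fold changes from 1.21 to 1.39. Prim1, the catalytic primase subunit, had 48.6 and 58.2 CPM in GSI and 145 and 134 in washout, with a log2 fold change of 1.39 ± 0.12 (SE). Pola2, the accessory polymerase subunit, had 63.8 and 82.2 in GSI and 156 and 180 in washout, with a log2 fold change of 1.21 ± 0.15 (SE). Pola1, the catalytic polymerase subunit, and Prim2, the large primase subunit, lay between them at 1.28 and 1.29.

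Polymerase delta, which copies the lagging strand, held the genes that moved in opposite directions. Pold1, Pold2 and Pold3 were upregulated and Pold4 was downregulated. Pold1, the catalytic subunit, had 112 and 151 CPM in GSI and 380 and 418 in washout, a log2 fold change of 1.60 ± 0.16 (SE). Pold2 and Pold3, its accessory subunits, had log2 fold changes of 1.12 and 1.06, and that of Pold3 was 0.95 without GSI replicate 1.

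Pold4, the smallest accessory subunit, had 17.0 and 15.4 CPM in GSI and 7.32 and 6.70 in washout. These values came from 544 and 225 counts in GSI and 249 and 90 in washout. Both washout libraries were below both GSI libraries. The log2 fold change was -1.21 ± 0.16 (SE), with an adjusted p of 0.00163 by edgeR. Pold4 was among the genes that glmTreat did not call. Pold4 lies at chr19:4231899-4233631 on the plus strand (mm9), and no exon of another annotated gene overlaps its exons.

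In RPKM, Pold4 was above Pold3 in GSI, at 18.7 and 16.9 against 12.3 and 14.1, and below it in washout, at 8.04 and 7.36 against 27.6 and 27.2. With the longest transcript as length the GSI values of Pold3, 16.5 and 19.1, overlapped those of Pold4, and the washout order was the same. The start window of Pold4, chr19:4231643-4231942 on the plus strand of GRCm38.p6, is shown as that of the only gene that fell. It held no E2F, TGGGAA or CACGTG match, and a CCAAT box was found on each strand (capitals).
Pold4 window: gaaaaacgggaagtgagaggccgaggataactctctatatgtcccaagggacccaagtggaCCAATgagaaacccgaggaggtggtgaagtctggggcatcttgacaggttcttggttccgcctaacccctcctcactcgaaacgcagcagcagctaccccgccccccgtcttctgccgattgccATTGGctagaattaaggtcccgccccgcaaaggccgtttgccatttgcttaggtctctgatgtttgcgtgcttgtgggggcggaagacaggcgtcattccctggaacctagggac

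Of the 4 subunits of polymerase epsilon, which copies the leading strand, 3 were upregulated. Pole, the catalytic subunit, had 86.6 and 118 CPM in GSI and 280 and 298 in washout, a log2 fold change of 1.50 ± 0.16 (SE). Pole3, a histone-fold subunit, and Pole2, which helps to hold the polymerase at the helicase, had log2 fold changes of 1.28 and 1.15. Pole4, the histone-fold partner of Pole3, had 59.6 and 58.0 CPM in GSI and 99.6 and 84.2 in washout, and its log2 fold change was 0.65 ± 0.11 (SE) with an adjusted p of 0.00423 by edgeR. With GC content and length corrected for, Pole4 was at 0.37. Pole3 and Pole4 pair in the polymerase, and in RPKM Pole4 was the highest of the 4 subunits in GSI, at 23.8 and 23.1, and Pole3 the lowest, at 8.55 and 7.90. In washout Pole3 was still the lowest, at 19.0 and 21.2, while Pole4, at 39.7 and 33.6, overlapped with Pole2 at 35.1 and 31.9. With the longest transcript as length, Pole4 in washout was apart, at 56.3 and 47.6, above Pole at 39.0 and 41.6.

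**Figure D3:**
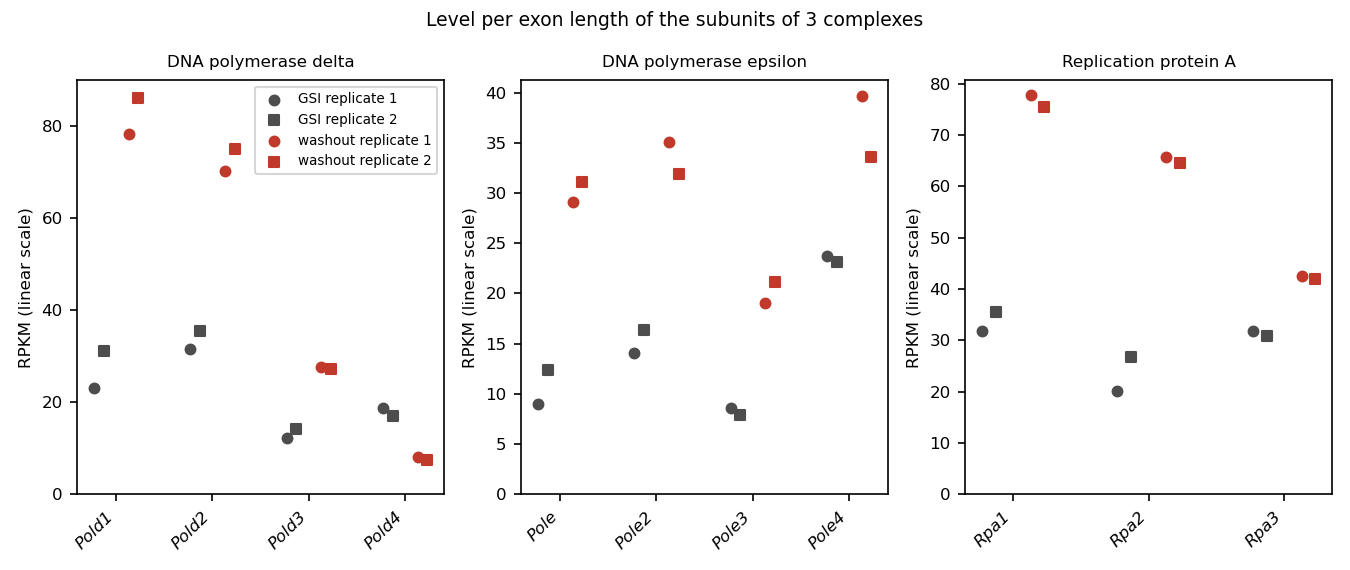
RPKM per library on a linear axis for the subunits of polymerase delta, polymerase epsilon and replication protein A, with circles for replicate 1, squares for replicate 2, grey for GSI and red for washout. Pold4 is the only subunit whose red points lie below its grey ones, and Rpa3 is above Rpa2 in GSI and below it in washout.

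Of the clamp and its loaders, 5 of 7 were upregulated and all 7 were higher at adjusted p, with a median log2 fold change of 1.30. Pcna, the ring that tethers the polymerases, had 236 and 279 CPM in GSI and 662 and 641 in washout, a log2 fold change of 1.34. The Pcna transcript has a 99.3% identical stretch on mm9 chromosome 19 that covers 82.3% of it, so its reads may be split. Dscc1, part of the alternative loader that also serves sister chromatid cohesion, changed most, from 7.94 and 10.4 CPM in GSI to 32.2 and 28.3 in washout, with a log2 fold change of 1.74 ± 0.17 (SE).

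Replication factor C, the loader of Pcna, has a large subunit and 4 small ones. Rfc3, Rfc5 and Rfc4 were upregulated, with log2 fold changes of 1.52, 1.30 and 1.26. Rfc2 had 61.9 and 76.1 CPM in GSI and 126 and 130 in washout, a log2 fold change of 0.89 with an adjusted p of 0.00175 by edgeR, and of 1.06 without GSI replicate 2. Rfc1, the large subunit, had 175 and 186 in GSI and 320 and 314 in washout, a log2 fold change of 0.81 ± 0.10 (SE) with an adjusted p of 0.0011 by edgeR. Neither Rfc1 nor Rfc2 overlapped between conditions. A stretch on mm9 chromosome 11 is 96.3% identical to 17.5% of the Rfc5 transcript.

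Replication protein A, the trimer that coats single-stranded DNA, changed unequally. Rpa2, its middle subunit, had 60.4 and 79.8 CPM in GSI and 197 and 193 in washout, a log2 fold change of 1.48 ± 0.15 (SE). Rpa1, the large subunit, had a log2 fold change of 1.19. Rpa3, the small subunit, had 36.2 and 35.0 CPM in GSI and 48.3 and 47.7 in washout, and its log2 fold change was 0.43 ± 0.10 (SE) with an adjusted p of 0.0112 by edgeR. It was 0.25 with an adjusted p of 0.346 after correction for GC content and length (0.0419 with the replicate block) and 0.23 with 0.0877 by total count, and its adjusted p came to 0.065 when GSI replicate 1 was left out and 0.0729 when GSI replicate 2 was.

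In RPKM the order of the trimer's subunits differed between conditions. In GSI, Rpa3 at 31.8 and 30.8 overlapped with Rpa1 at 31.8 and 35.6, and both were above Rpa2 at 20.2 and 26.7. In washout, Rpa1 at 77.8 and 75.5 was above Rpa2 at 65.8 and 64.5, and Rpa3 was the lowest at 42.5 and 42.0. With the longest transcript as length Rpa3 was the highest in GSI, at 53.0 and 51.3, and again the lowest in washout, at 70.8 and 69.9.

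Of the 3 genes that finish lagging-strand fragments, Fen1 and Lig1 were upregulated. Fen1, the flap endonuclease, had 85.7 and 108 CPM in GSI and 258 and 256 in washout, a log2 fold change of 1.41 ± 0.13 (SE). Lig1, the ligase that seals the fragments, had a log2 fold change of 1.16. Rnaseh2a, the catalytic subunit of an enzyme that removes ribonucleotides from DNA, had 26.6 and 30.8 CPM in GSI and 53.7 and 57.7 in washout. This was a log2 fold change of 0.96, under the fold threshold, with an adjusted p of 0.00122 by edgeR. It was 1.08 without GSI replicate 2 and 1.02 without washout replicate 1. The exons of all 3 genes overlap those of another annotated gene on the other strand.

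Chromatin assembly factor 1 puts histones onto the new DNA. Its large subunit gene Chaf1a had 71.4 and 98.0 CPM in GSI and 218 and 220 in washout, a log2 fold change of 1.38. Chaf1b had 60.4 and 63.1 in GSI and 118 and 120 in washout, a log2 fold change of 0.95 with an adjusted p of 0.000582 by edgeR. Both were higher in washout, and only Chaf1a was past the fold threshold.

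The 52 genes lie on 15 chromosomes. Their exonic GC content had a median of 48.4%, beside 50.3% for the 10962 tested genes with an annotation, and their exon length a median of 3503.5 bases beside 3567. For 14 of them, namely Orc1, Orc2, Orc4, Mcm7, Cdc45, Gins2, Ccne2, Pole, Rfc4, Rfc5, Fen1, Lig1, Rnaseh2a and Chaf1a, an exon overlaps that of a gene on the other strand. The paper names a stranded library kit, but the strand setting of the counting is not given in the sources used here. Whether reads of such pairs were mixed in the counts is therefore not known. With GC content and length corrected for, 35 were upregulated and 1 downregulated, beside 774 and 1261 of all 10962 genes tested in that setting. Orc2, Pold3, Pole2 and Rfc4 then missed the fold threshold and Rnaseh2a and Chaf1b passed it.

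Lists of related genes were read in the same test, each by its counts and median. Of 31 other origin and fork factors, 19 were upregulated and none downregulated, and 29 were higher at adjusted p by edgeR. Their median log2 fold change was 1.12. The largest was that of Wdhd1, a partner of polymerase alpha, which had 49.5 and 67.4 CPM in GSI and 170 and 169 in washout, a log2 fold change of 1.55. The smallest was that of Mcm9, the partner of Mcm8 in recombination repair, which had 23.5 and 24.7 in GSI and 25.6 and 26.6 in washout, with a log2 fold change of 0.12 and an adjusted p of 0.412 by edgeR. Mcm8 was thus upregulated and Mcm9 was not called, and the difference between them was not tested.

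Of 10 genes that supply deoxynucleotides, 9 were tested and 6 were upregulated, with a median log2 fold change of 1.37. Dctd, a deaminase on the route to thymidylate, had 3.94 and 5.21 CPM in GSI and 24.2 and 25.2 in washout, a log2 fold change of 2.46 ± 0.18 (SE). Rrm2b, the ribonucleotide reductase subunit that serves repair and resting cells, had 39.3 and 32.4 in GSI and 25.8 and 17.9 in washout. Its log2 fold change was -0.70 ± 0.20 (SE), with an adjusted p of 0.0244 by edgeR, and it passed both thresholds, at -1.001, without washout replicate 1. It was -0.47 without washout replicate 2, and without GSI replicate 1 it was -0.56 with an adjusted p of 0.112, so that call rested on GSI replicate 1.

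Of 18 genes of mitosis, 2 were upregulated, and 17 were higher at adjusted p by edgeR, with a median log2 fold change of 0.74. Without GSI replicate 2 the number upregulated was 4. It was 1 or 5 when the first or the second washout library was left out. Bub1b, a spindle checkpoint kinase, had 225 and 260 CPM in GSI and 482 and 531 in washout, the highest log2 fold change of the list at 1.07 (0.96 without GSI replicate 1). Cenpf, a kinetochore protein, had 237 and 247 CPM in GSI and 255 and 275 in washout, the lowest at 0.13 with an adjusted p of 0.31 by edgeR. With the replicate block and GC and length correction together, Cenpf was at 0.20 with an adjusted p of 0.0116. Of 7 mitochondrial replication genes tested, 2 were upregulated (1 without GSI replicate 1), with a median of 0.81. Mgme1, a mitochondrial exonuclease, was highest, with 12.7 and 12.7 CPM in GSI and 33.2 and 33.8 in washout and a log2 fold change of 1.40. Polg, the mitochondrial DNA polymerase, was lowest, with 172 and 178 CPM in GSI and 125 and 140 in washout, a log2 fold change of -0.40 and an adjusted p of 0.0165 by edgeR. The adjusted p of Polg was 0.0645, 0.102 and 0.066 without GSI replicate 1, GSI replicate 2 and washout replicate 1, and 0.235, at -0.11, after correction for GC content and length (0.151 with the block).

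The repair and translesion polymerases were mixed in direction. Of 11, 10 were tested, 1 was upregulated, 1 was downregulated, and the median log2 fold change was -0.19. Polq, the polymerase of end joining through short homologies, had 28.1 and 41.3 CPM in GSI and 70.1 and 79.4 in washout, a log2 fold change of 1.12, which was 0.85 without GSI replicate 1. Polm, a polymerase of end joining in lymphoid cells, had 11.4 and 11.3 in GSI and 5.46 and 5.06 in washout, a log2 fold change of -1.10 ± 0.18 (SE) with an adjusted p of 0.00316 by edgeR. The lists were not tested against each other.

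**Figure D4:**
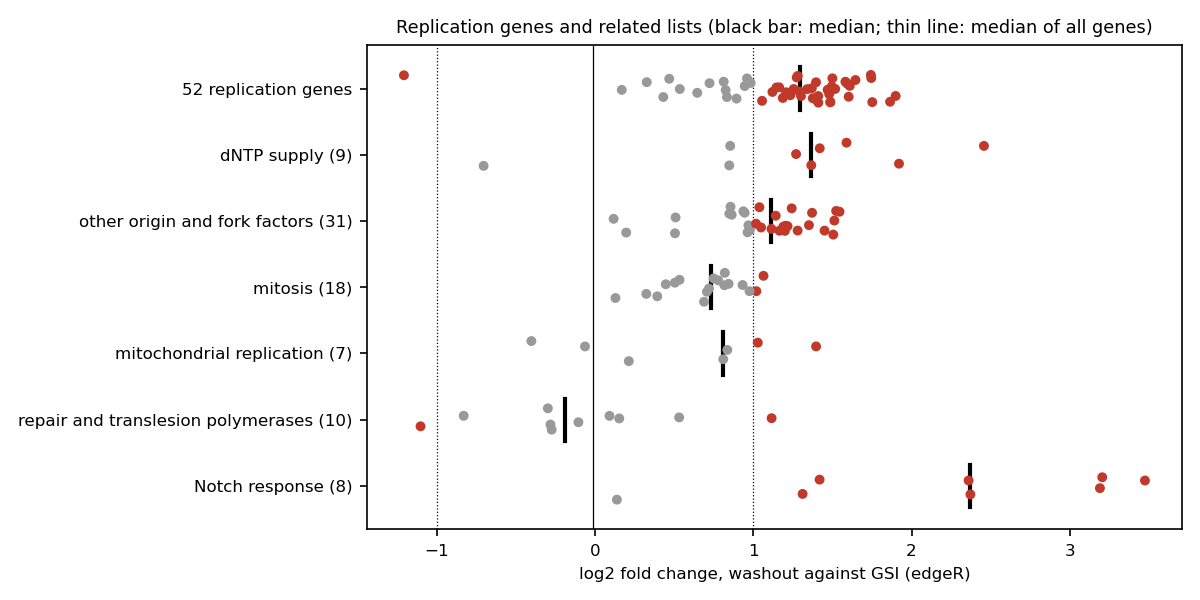
Log2 fold change of each tested gene, washout against GSI, for the 52 replication genes and 6 related lists, with the number tested in brackets. Red points passed both thresholds, grey points did not, black bars are medians and the thin line is the median of all genes. The medians run from -0.19 for repair and translesion polymerases to 2.37 for the Notch response.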

How the data were processed

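Reads were trimmed by the authors, mapped to mm9 with HISAT2 2.2.1 (version per the submitters' processing notes) and summed per gene of the iGenomes annotation. The table they deposited gives raw counts, with 1 column for each library. The labels and the methods give different units for the inhibitor's concentration, which is not given here. Genes were filtered with filterByExpr, scaled by TMM factors and compared in all 4 libraries with edgeR 4.0.16 in R 4.3.3 (glmQLFit and glmQLFTest, no covariate), with Benjamini-Hochberg adjustment over all 12266 genes. CPM use TMM-scaled library sizes, and standard errors are on the log2 scale. RPKM divides them by the length of merged exons in GENCODE vM1, which is on mm9. Copies of transcripts in the genome were sought with minimap2 2.31 (at least 200 matching bases and 95% identity). The main edgeR fit was run on simulated counts, with 200 genes changed by 1.5 up or down on the log2 scale. It recovered 176 of them, with 4 false calls. The simulated libraries were drawn independently, and the other steps were not run on simulated counts.

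The replication genes, their groups and the related lists were chosen with earlier results of these data known. Values were given per library for the largest and smallest change in each group, for every gene not past both thresholds and for MCM2-7, and for the highest and lowest gene of each related list. Orc2, Orc6, Cdc45, Mcm8 and Pcna were named with library values in addition, after these were seen. Twnk, listed for mitochondrial replication, was not analysed here. One marker gene is not reported here. The alternatives are given in the closing section. DESeq2 1.42.0 was used as one of them.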

Additional observations from a re-analysis of the deposited data

How the results depend on the processing

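Of 15 other settings, the replicate block, DESeq2's size factors in edgeR, thinning of the deeper libraries with or without the block, a minimum of 10 counts in every library and leaving out washout replicate 2 changed no replication gene's call past both thresholds together. The replicate number as a block gave 37 upregulated and 1 downregulated, beside 981 and 1576 of all 12266 genes. It moved Orc4 past adjusted p (0.00665 by edgeR), so that 50 replication genes were higher at adjusted p alone. The deviations of same-numbered libraries correlated at 0.497, but with 2 pairs the numbers are only shared. Pold4 was downregulated in every setting except glmTreat. DESeq2 gave 38 replication genes upregulated and 1 downregulated, beside 953 and 1167 of the 13172 genes it tested.

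With total counts as scale, upregulated genes numbered 586 among all genes, 12 among other fork factors, 1 mitochondrial, 0 repair polymerases (2 downregulated) and 0 mitotic, and the replication median was 1.10. With glmTreat, 308 of all genes were called higher and 501 lower, and among replication genes 21 and 0, with 7 other fork factors, 1 mitochondrial, 0 mitotic and 0 repair genes. The mitochondrial and mitotic lists gave 1 and 1 upregulated with 10 counts in every library, and 0 and 0 after GC and length correction, also with the replicate block. Leaving out 1 library gave 36 to 40 upregulated replication genes with medians from 1.21 to 1.40, 881 to 1064 upregulated of all genes and 1118 to 1375 downregulated, and 46 to 51 replication genes higher at adjusted p. It gave 15 to 24 other fork factors, 1 to 2 mitochondrial, 0 to 1 repair and 1 to 5 mitotic genes upregulated, and 0 to 1 deoxynucleotide genes downregulated.

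Directions turned for Orc3 (-0.029 with total counts, and from -0.0090 to 0.34 without 1 library) and Orc4 (from -0.073 to 0.64 without 1 library). With total counts, Mcm9 was at -0.081, Cenpf at -0.069 and Notch3 at -0.059, and Notch3 ran from -0.052 to 0.36 without 1 library, but was at 0.62 (adjusted p 0.0054 by edgeR) after GC and length correction and 0.63 with the block. By longest transcript the median RPKM of the replication genes was 22.5 in GSI and 52.8 in washout. The E2F share with 7-base motifs was 65.1%. The cause of these changes was not tested. The calls at adjusted p of Orc3, Orc4, Orc5, Ccne1 and Rpa3 differed between settings.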
